A study of Mus musculus with 2 samples.

Results

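The replication-dependent histone genes of the mouse lie mainly in 2 blocks of chromosome 13, from 21.7 to 22.05 Mb and from 23.53 to 23.77 Mb of build mm10, here called the proximal and the distal window. All ATAC-seq peaks inside these windows were taken, which gave 65 of the 84594 distinct peaks of the deposited table, 36 in the proximal and 29 in the distal window. ATAC-seq measures open chromatin by the DNA fragments that a transposase releases. The cells came from the basal layer of mouse skin epidermis. Cells with high α6 integrin, without CD34 and Lrig1, and positive for the YFP, GFP and RFP reporters of K14 lineage tracing had been sorted, 50000 per library. K14 is the keratin 14 gene of basal keratinocytes, so the cells sorted for both libraries had been labelled through it. There was 1 library from wild-type epidermis (control) and 1 library labelled as basal lineage ablation (ablation). The age, the sex, the number of animals, the way in which cells were ablated and the time after ablation were not given in the sources used here.

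Replication-dependent histones are made in bulk during S phase, when new DNA has to be wrapped into nucleosomes. Their small intronless genes are transcribed at the histone locus body, a nuclear structure built around the coactivator NPAT, and their mRNAs end in a stem-loop bound by SLBP in place of a poly(A) tail. H2A, H2B, H3 and H4 form the core of the nucleosome, and the linker histone H1 binds the DNA where it enters and leaves. Basal keratinocytes are the dividing layer of the epidermis and therefore use these genes.

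The windows held 52 protein-coding histone genes of the RefSeq annotation of GRCm38.p6, the assembly behind mm10. They comprised 6 H1, 12 H2A, 14 H2B, 9 H3 and 11 H4 genes, with 23 genes in the proximal and 29 in the distal window. Promoter windows of 300 bases, from 250 before to 50 after the start site, were at hand for 49 of them, or 50 windows in all. The sequences below are the 200 bases before the start site of the gene whose start-site peak had the most signal in its class, and of H4c9, the H4 gene with the largest ratio among its better covered members. The germline linker gene H1f6 is added as a gene whose start site lay outside every peak. Each runs 5′ to 3′ in the direction of the gene, with the searched motifs in capitals on either strand. The genes H1f2 (chr13:23738607-23738806), H2bc14 (chr13:21721844-21722043) and H1f6 (chr13:23695611-23695810) lie on the plus strand. H2ac6 (chr13:23683960-23684159), H3c3 (chr13:23745522-23745721), H4c1 (chr13:23761250-23761449) and H4c9 (chr13:22041363-22041562) lie on the minus strand.
H1f2: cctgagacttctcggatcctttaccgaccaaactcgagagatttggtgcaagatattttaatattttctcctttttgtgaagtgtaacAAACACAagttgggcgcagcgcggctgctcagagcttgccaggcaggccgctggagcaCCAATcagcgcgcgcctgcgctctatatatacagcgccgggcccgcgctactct
H2ac6: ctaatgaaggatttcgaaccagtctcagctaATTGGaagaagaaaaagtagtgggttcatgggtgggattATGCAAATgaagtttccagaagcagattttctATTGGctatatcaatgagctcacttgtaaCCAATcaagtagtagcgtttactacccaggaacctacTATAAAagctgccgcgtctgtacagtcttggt
H2bc14: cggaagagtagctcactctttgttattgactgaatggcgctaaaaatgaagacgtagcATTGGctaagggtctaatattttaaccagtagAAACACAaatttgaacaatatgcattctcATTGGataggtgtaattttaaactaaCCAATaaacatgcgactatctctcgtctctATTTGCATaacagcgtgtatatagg
H3c3: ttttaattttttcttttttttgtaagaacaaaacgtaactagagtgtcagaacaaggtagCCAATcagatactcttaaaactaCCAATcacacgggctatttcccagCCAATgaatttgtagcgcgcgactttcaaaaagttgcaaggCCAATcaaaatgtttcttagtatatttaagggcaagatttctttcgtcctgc
H4c1: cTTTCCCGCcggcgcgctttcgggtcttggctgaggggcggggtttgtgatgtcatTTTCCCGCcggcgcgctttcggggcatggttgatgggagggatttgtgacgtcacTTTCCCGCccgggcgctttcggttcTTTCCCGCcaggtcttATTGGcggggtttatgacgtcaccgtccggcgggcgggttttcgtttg
H4c9: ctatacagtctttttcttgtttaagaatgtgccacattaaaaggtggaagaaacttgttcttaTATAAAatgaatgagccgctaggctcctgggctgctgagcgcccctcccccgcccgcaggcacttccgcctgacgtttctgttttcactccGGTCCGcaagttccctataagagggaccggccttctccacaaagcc
H1f6: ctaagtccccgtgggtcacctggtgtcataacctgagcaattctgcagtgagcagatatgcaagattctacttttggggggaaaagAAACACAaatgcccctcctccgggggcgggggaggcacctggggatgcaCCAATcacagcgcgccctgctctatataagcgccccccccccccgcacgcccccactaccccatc

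The next stretch is the whole DNA between the start sites of the divergent genes H2ac12 and H2bc12 (chr13:22035644-22035820, plus strand), shown because such pairs share 1 promoter region and, here, 1 peak.
H2ac12-H2bc12: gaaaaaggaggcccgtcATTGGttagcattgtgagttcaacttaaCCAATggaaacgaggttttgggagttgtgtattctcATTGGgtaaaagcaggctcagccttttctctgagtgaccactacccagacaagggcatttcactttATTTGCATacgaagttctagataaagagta

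The histone classes carried different promoter motifs. CCAAT, the letters bound by NF-Y, was in 84% of the 50 histone windows against 38.2% of the 21263 protein-coding promoter windows. It was in all H1, H2A, H2B and H3 windows and in 3 of 11 H4 windows. In H3c3 it occurred 4 times within the stretch above. The TATA box letters TATAAA were in 58% against 12.6%. The octamer ATTTGCAT, the letters read by POU2F1, was in 18% against 1.66%, and all its 9 windows belonged to H2A (4 of 12) and H2B (5 of 14) genes. AAACACA, known as the AC box of H1 promoters, was in 5 of 6 H1 windows and in 14% of histone windows against 6.15% of all. GGTCCG, part of the H4 element read by HINFP, was in 10 of 11 H4 windows and in 24% of histone windows against 10.5% of all. The exception was H4c1, the only histone window with the E2F-like letters TTTCCCGC, which 2% of histone windows and 1.41% of all held. Both strands were searched, the letters of different motifs may overlap, and a match is a description of the letters and not a shown binding site.

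**Figure D1:**
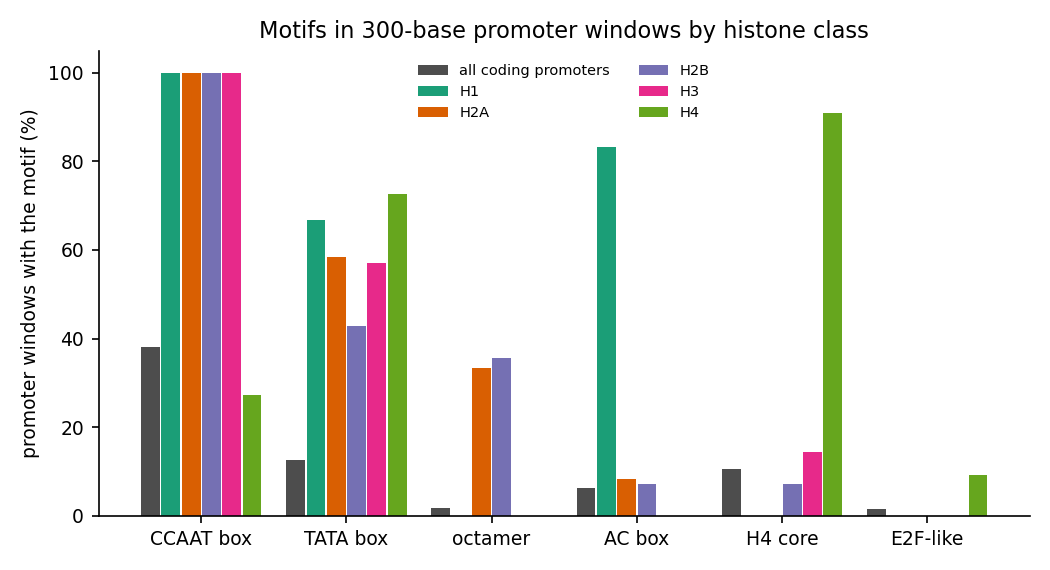
Percentage of 300-base promoter windows (y axis) that hold each searched motif (x axis), for all 21263 protein-coding windows and for the windows of each histone class. Every H1, H2A, H2B and H3 window held CCAAT, while 10 of 11 H4 windows held the H4 core letters.

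Signal is given as deposited, in normalized reads, that is, reads in the peak divided by 1 factor per library. It is summed over a peak and grows with the peak's length, which ran from 324 to 2082 bp at histone genes. Reads in nuclear peaks came to 17056996 in control and 12463908 in ablation, and a member peak had a median of 212 and 183 reads. Mitochondrial peaks took 7.31% of the reads in control and 31.2% in ablation. Each group had a single library and thus no measured spread between animals, so no p-value is given, and every interval in brackets is a 95% interval of the read counts for counting error only. Peaks with a mean signal of at least 13.96, the 10th percentile, are called tested, which left 76147 peaks and 60 of the 65 members. Peaks lay at 8 of 8 basal keratinocyte markers, with a summed signal of 12170 in control and 11689 in ablation. Among these 8, the interval lay above 1 for 1 gene (Krt5, ratio 1.22) and below 1 for 3, with Itga6 at 0.809. Suprabasal markers had peaks at 5 of 6 genes (2675 and 2370), with no tested peak at Flg. Their intervals lay above 1 for 2 genes and below 1 for 2. Immune markers had peaks at 5 of 7 genes (583 and 513 normalized reads in sum) and fibroblast markers at 3 of 6 (416 and 411), with no tested peak at Cd207, Cd3g, Col1a2, Col3a1 or Lum. Endothelial markers had peaks at 5 of 6 genes (2492 and 2399), with none at Cdh5. Most of that sum lay at Pecam1 (1887 and 1838). Tie1 had a ratio of 2.69 (2.07 to 3.54) and Tek one of 0.631 (0.551 to 0.721). Melanocyte markers had peaks at 4 of 6 genes (3219 and 2886), with none at Tyr or Kit. The part of other cells and of the mitochondrial share in the values below was not tested.

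Histone genes were in open chromatin in both libraries. Of the 52 genes 49 had a peak over the gene or within 1 kb of it, and of the 49 genes with a known start site 43 had it inside a peak. Among all protein-coding genes with a known start site, 10391 of 17492 (59.4%) did. The 3 genes without a peak were H2bc23, H2ac23 and H4bc24 (an H2B gene despite its symbol, also named Hist1h2br), all in the proximal window. H2bc23 and H2ac23 are neighbours there. H4c17, H4c18 and H2ac24, each with a peak over the gene or within 1 kb, lie between H2ac23 and H4bc24. The promoter windows of H2bc23 and H4bc24 were 100% identical, and those of H4c17 and H4c18 were identical at 99.3% and those of H4c11 and H4c12 at 91.7% of their bases. How reads that map to more than 1 place were treated is not given in the sources used here, so low values at these 6 genes are uncertain. Per kb of peak, histone-gene peaks had a median signal of 327 normalized reads (mean of both libraries) against 106 for all peaks, and 29 of the 37 were in the upper 3 signal deciles. Tested peaks over any protein-coding start site were similar, with a median of 283 per kb. Of these 9939 peaks, 7618 were in the upper 3 deciles. Members made up 0.123% of nuclear reads in control and 0.147% in ablation.

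Histone-gene peaks stood higher in ablation than in control relative to the median of all peaks. The 37 peaks at histone genes summed to 12489 normalized reads in control and 14011 in ablation, a ratio of 1.12 (1.10 to 1.15), and 31 of the 37 were higher in ablation. Of all 84591 nuclear peaks, 41766 were higher. The histone-gene peaks that were not higher, at H1f2, H1f5, H2bc7, H3c4, H2bc6 and H2bc4, had ratios of 0.831 to 0.979 with intervals that include 1. The median log2 ratio of ablation to control over all 37 was 0.18, against -0.012 over all tested peaks. Dividing each library instead by its whole-table total, with mitochondrial peaks counted, shifted all peaks by -0.33 at the median. It turned the histone median to -0.16. A single factor per library shifts both medians alike, so their distance of 0.19 could hardly change and is no check on the scaling. The sign of the histone median thus depended on the divisor, and whether accessibility differed between the groups was not tested. A library of pooled cells also does not separate more cells with open histone genes from more accessible ones in each cell.

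**Figure D2:**
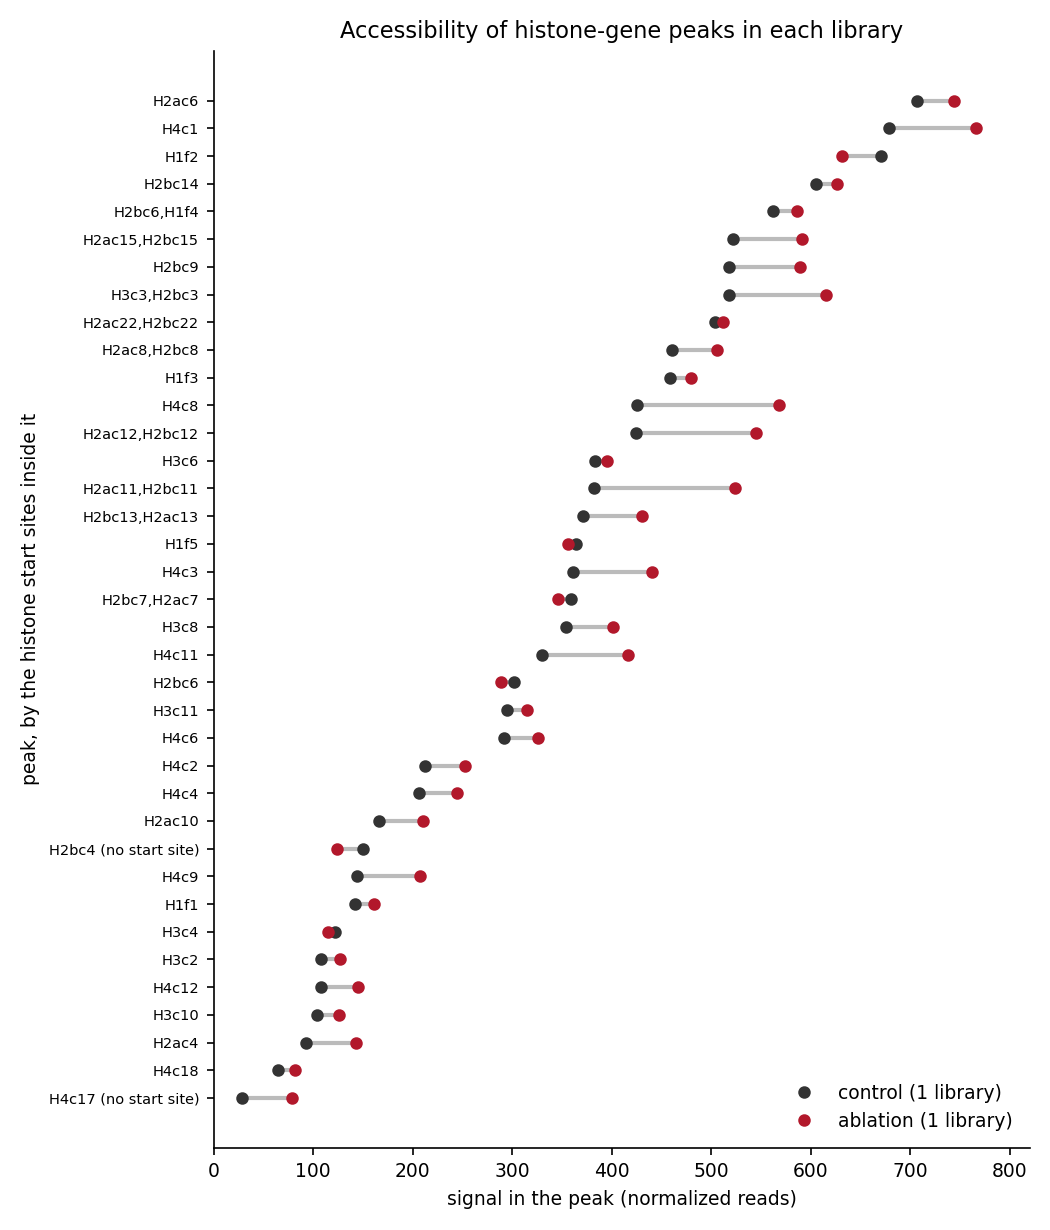
Signal in normalized reads (x axis) of the 37 histone-gene peaks (y axis, named by the start sites inside each peak) in the control library (dark points) and the ablation library (red points), joined by a line per peak. As deposited, 31 of the 37 peaks were higher in ablation, against 41766 of all 84591 nuclear peaks. With whole-table totals as the divisor the median log2 ratio of the 37 was -0.16.

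Among peaks of like strength the distance was wider. The median log2 ratio of all peaks declined from 0.20 in the weakest to -0.18 in the strongest signal decile, and most histone-gene peaks were strong. In the top decile, 16 of 17 histone-gene peaks were higher in ablation as deposited, against 1100 of all 7615 peaks. H1f2 was the exception. In the upper 3 deciles the 29 histone-gene peaks had a median of 0.18, against -0.12 for the 22844 peaks of these deciles and -0.12 for the 7618 of them over a protein-coding start site. Of these 29, 6 (20.7%) were at least 25% higher in ablation, against 4.95% of all peaks in the same deciles. After a loess correction, which centres the ratio at every signal level, the median of all 37 was 0.29 and 35 lay above 0.

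**Figure D3:**
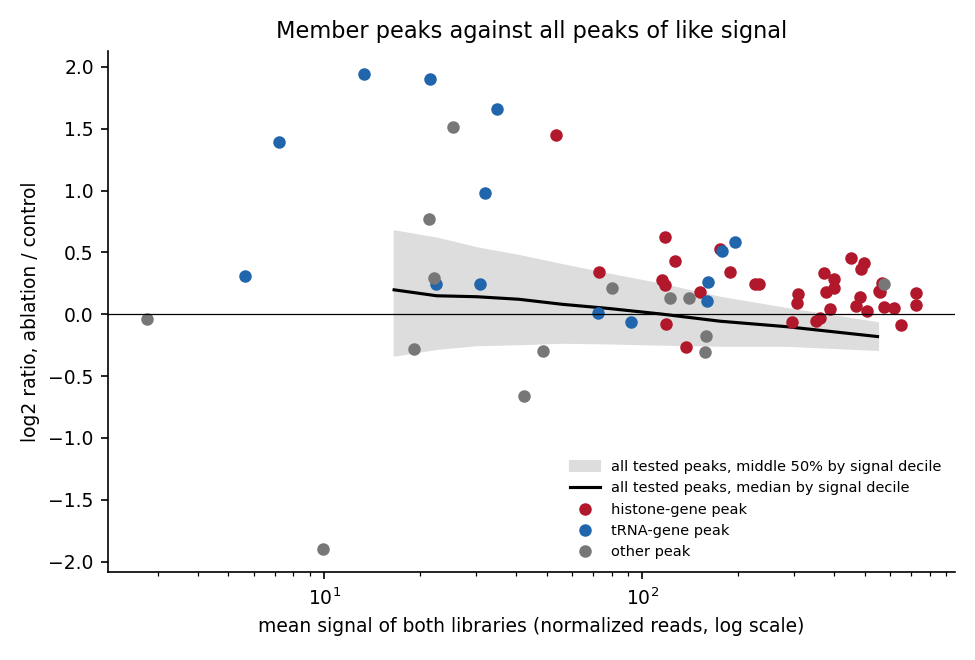
Log2 ratio of ablation to control (y axis) against the mean signal of both libraries (x axis, log scale) for the 65 member peaks, by kind. The black line and grey band give the median and the middle 50% of all tested peaks by signal decile; the red histone-gene peaks lie mostly above the line, whose median falls to -0.18 in the top decile.

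The differences were small. Over all histone-gene peaks, 10 of 37 (27.0%) were at least 25% higher on the scale of signal + 1, close to the 24.6% of all tested peaks, and 0 were at least 20% lower, against 19.8%. The counting interval of the 37 lay above 1 for 16 peaks, below 1 for 0 and held 1 for 21. Such intervals were not counted over all peaks, so whether 16 of 37 is many cannot be told. At 1.5-fold, 7 of the 60 tested members were higher, against 13% of all tested peaks, and 1 was lower, against 7.47%. Histone promoters had a median GC content of 45.2% against 56.3% for all promoters. The 354 other start-site peaks of the upper 3 deciles whose promoter GC lay in the middle range of the histone genes had a median log2 ratio of -0.092.

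By class, the ratio of summed signal was largest for H4 and smallest for H1, as deposited. A peak near genes of several classes counts in each. The 11 H4 peaks had a ratio of 1.24 (1.18 to 1.29) with all 11 higher, H2A 1.14 (1.10 to 1.18), H3 1.14 (1.09 to 1.18), H2B 1.10 (1.07 to 1.13) and H1 1.06 (1.01 to 1.10). With peaks over an H1 start site alone the H1 ratio was 1.01 (0.955 to 1.06), while it was 1.22 (1.17 to 1.28) over H4 start sites. With whole-table totals as the divisor, the log2 ratios of the sums were -0.032 for H4, -0.15 for H2A, -0.16 for H3, -0.20 for H2B and -0.26 for H1. This divisor scales all ablation values by the same factor, so the order of the classes could not change. H4 peaks were shorter than H1 peaks, with medians of 770 and 1372 bp. Their median signal (mean of both libraries) was 232 against 469 per peak and 295 against 318 per kb of peak. After the loess correction the median log2 ratio was 0.42 for H4 peaks and 0.22 for H1 peaks.

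**Figure D4:**
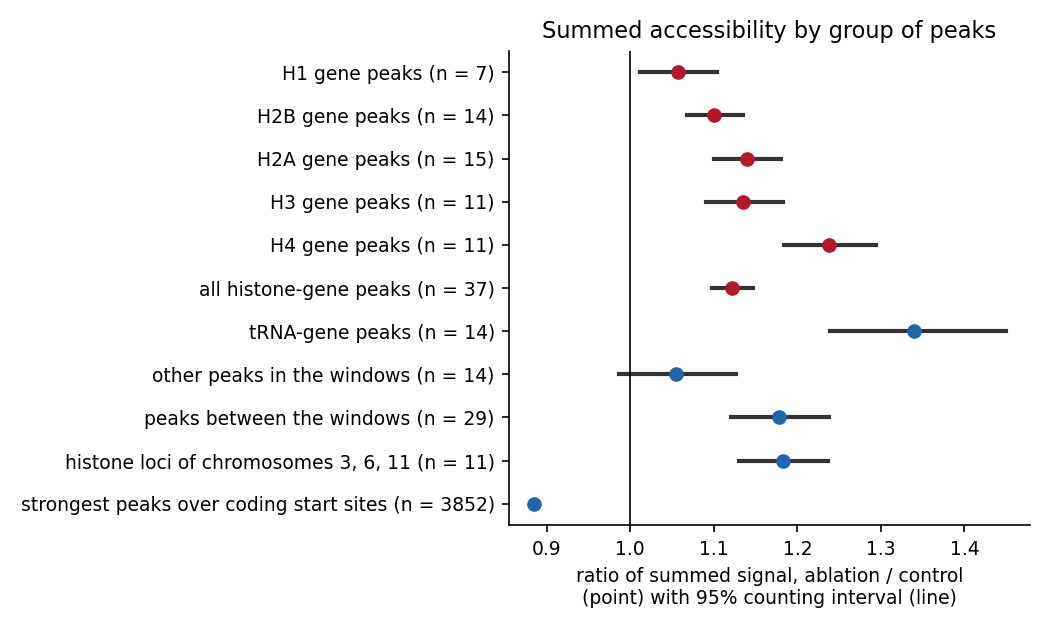
Ratio of summed signal, ablation over control (x axis), with its 95% counting interval (line) for histone classes, other groups of peaks in and around the windows, and strong peaks over coding start sites (y axis; n is the number of peaks). The interval of H4 (1.18 to 1.29) lies above that of H1 (1.01 to 1.10) in the deposited signal; the intervals hold no variation between animals.

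In the deposited signal the linker histone genes differed least from no change, while under whole-table totals their sum (-0.26) lay farthest from it. H1f2, which encodes a somatic linker subtype, had 670 normalized reads in control and 631 in ablation, a ratio of 0.942 (0.853 to 1.04). H1f5 had 364 and 356, and H1f3 had 459 and 480. The peak over H1f4 also reaches a start site of H2bc6 and had 562 and 586. As deposited, the intervals of these 4 peaks include 1. H1f1 had the highest summed signal of the class, 820 and 926, most of which lies in the neighbouring peak of H4c1; its own start-site peak had 142 and 161. H1f6, the testis linker histone, had no peak over its start site, and the signal counted for it (361 and 441) is that of a peak 995 bp away over the start of H4c3. Another pair of germline histone genes, H2ac1 and H2bc1, lies outside the windows and was not described here.

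H2A and H2B genes often lie head to head and share a promoter. There were 9 such pairs with start sites 164 to 268 bp apart, and in 7 of them 1 peak covered both starts. These 7 peaks had 358 to 521 normalized reads in control and 346 to 591 in ablation, with ratios from 0.964 to 1.37. The pair H2ac11 and H2bc11 had the largest ratio, with 382 in control and 523 in ablation, 1.37 (1.22 to 1.54). The pair H2ac12 and H2bc12, whose shared promoter is printed above, had 424 and 545, 1.29 (1.15 to 1.44). Both pairs lie at the far end of the proximal window. At the other end of the range, H2bc7 and H2ac7 had 358 and 346, 0.964 (0.842 to 1.10). The interval of H2bc7 includes 1, and those of H2ac11 and H2ac12 do not.

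The other H2A and H2B peaks with the most signal differed little as deposited. The peak over the start of H2ac6, which also reaches H2bc4, had 706 in control and 744 in ablation, the highest control signal of any member peak. H2bc14 had 605 and 626. H2bc6, which has 2 listed start sites and 2 peaks, had 864 and 874 in sum. The intervals of these genes include 1 (H2ac6 1.05, 0.959 to 1.16; H2bc14 1.03, 0.935 to 1.15; H2bc6 1.01, 0.929 to 1.10). A weaker peak over H2ac4, with 92.4 and 143, had a ratio of 1.55 (1.22 to 1.97). It was the only start-site peak of the windows' histone genes past 1.5-fold.

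H3 genes lay between H1 and H4. The peak that holds the start sites of H3c3 and H2bc3 had 517 in control and 615 in ablation, 1.19 (1.07 to 1.32). H3c1 lies under the same peak as H4c1, which had 678 and 766. H3c2 with its neighbour peak had 200 and 270 in sum, 1.35 (1.14 to 1.59), the largest ratio of the class. That neighbour is the start-site peak of H2ac4, and the peak over the start of H3c2 itself had 108 and 127, 1.18 (0.928 to 1.49). H3c4 had 122 and 115, 0.944 (0.744 to 1.19), the smallest, with an interval that includes 1.

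All 11 H4 genes had higher deposited signal in ablation. H4c1, with the most signal in its peak, had 678 in control and 766 in ablation, 1.13 (1.03 to 1.24). H4c9 had 144 and 208, 1.44 (1.19 to 1.75). H4c8, at the near end of the distal window, had 426 and 568, 1.33 (1.19 to 1.49). The intervals of these 3 genes lie above 1. H4c6 had the smallest ratio of the class, with 291 and 326, 1.12 (0.967 to 1.29). H4c12 had 107 and 145, 1.35 (1.08 to 1.70), and its promoter is nearly a copy of that of H4c11, which had 330 and 416. H4c17 had the largest ratio of any histone gene, 28.2 and 78.9, or 2.80 (1.90 to 4.17). Its peak lies over the gene's end and does not reach the start, and the near copy H4c18 had 64.2 and 81.6, 1.27 (0.939 to 1.72).

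Both windows had summed ratios above 1 as deposited. The 14 histone-gene peaks of the proximal window had a summed ratio of 1.17 (1.13 to 1.21) and a median log2 ratio of 0.31, and the 23 of the distal window 1.10 (1.07 to 1.13) and 0.17. No member peaks overlap.

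**Figure D5:**
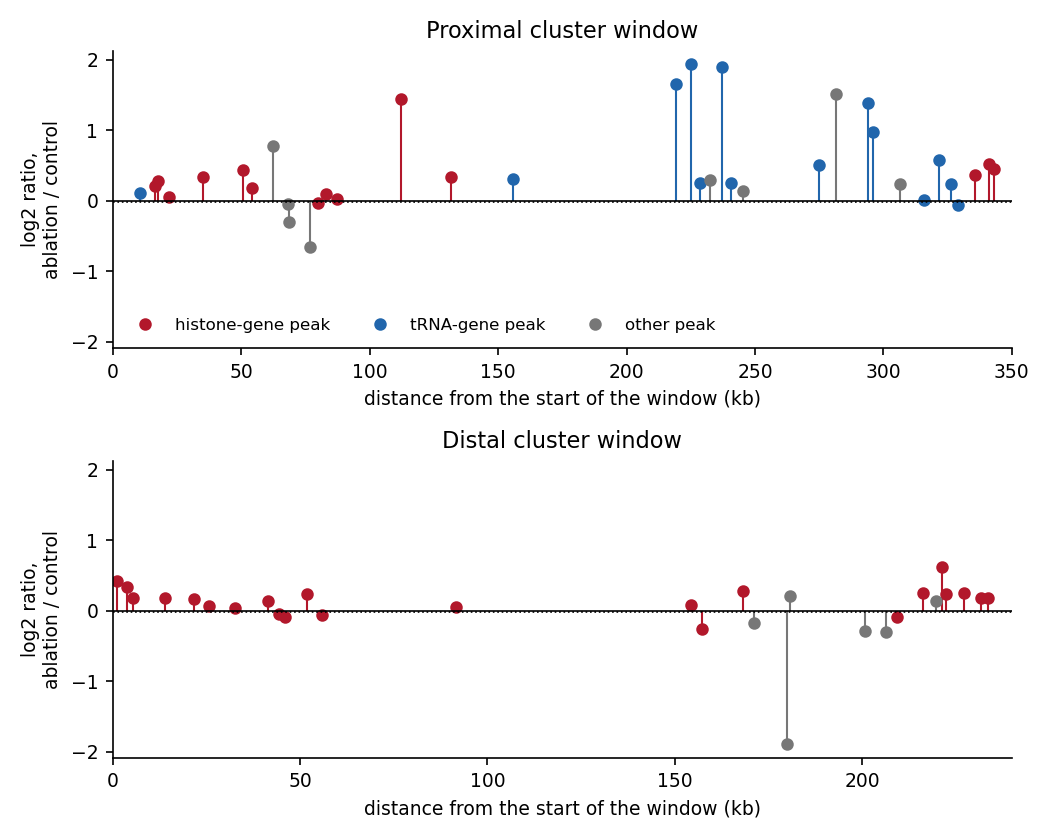
Log2 ratio of ablation to control (y axis) of every member peak along the proximal window (350 kb) and the distal window (240 kb), placed by distance of its centre from the window's start (x axis, kb). The solid line is 0 and the dotted line the median of all tested peaks (-0.012); the largest ratios belong to weak tRNA-gene peaks in the proximal window.

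The 28 other peaks of the windows were weaker and more scattered. Of these, 14 lay within 1 kb of a tRNA gene, all in the proximal window, where the RefSeq table lists 33 tRNA genes against 1 in the distal window. The tRNA-gene peaks summed to 876 normalized reads in control and 1175 in ablation, 1.34 (1.24 to 1.45), and 13 of 14 were higher as deposited. Their median log2 ratio was 0.26 and their median signal 33.4. Of all 38072 tested peaks under the median signal, 22392 were higher. The other 14 peaks had a ratio of 1.05 (0.986 to 1.13), with 7 higher and 7 lower. The 11 tRNA-gene peaks with a tRNA gene inside had a ratio of 1.33 (1.22 to 1.44) and a median log2 ratio of 0.26. Outside the windows, the 130 peaks with a tRNA gene inside had a ratio of 1.06 (1.05 to 1.08) and a median log2 ratio of 0.20. Of these 130, 90 were higher as deposited.

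The highest tested members were weak peaks. A peak over the serine tRNA gene n-TSaga1 had 8.47 in control and 34.5 in ablation, a log2 ratio of 1.91. One over n-TSaga5 had 16.2 and 53.5 (1.66), and one in Pom121l2, a gene related to nucleoporins, had 12.7 and 38.1 (1.51). The first rests on 12 and 38 reads. The lowest tested members were a peak 2699 bp from H1f5, with 52.2 and 32.7 (-0.66), a peak 2109 bp from H1f2, with 174 and 141 (-0.30), and a peak in the predicted gene Gm11274, with 53.6 and 43.5 (-0.29). Of the 60 tested members, 4 were at least 2-fold higher and 0 at least 2-fold lower, against 4.48% and 1.88% of all tested peaks. All 4 had less than the median signal of tested peaks (66.1), and 0 of the 48 members at or above it were past 2-fold. Among the 5 members too weak to be tested, a peak in Hfe, the iron-sensing gene inside the distal window, had 16.2 and 3.63. One over n-TStga2 had 4.94 and 21.8. The counts past 2-fold depend on the filter, which acts on the mean of both libraries. The peaks over n-TSaga1 and in Pom121l2 passed it although their control values lay below the threshold. Without the filter, 6 members were at least 2-fold higher and 1, the Hfe peak, was at least 2-fold lower.

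The table lists its peaks in 3 runs, and where a peak is first listed goes with its ratio. Of the members, 55 are first listed in the third run, among them all histone-gene peaks, with a summed ratio of 1.13 (1.10 to 1.15). The 6 first listed in the first run, most of them tRNA-gene peaks, were all higher (2.47, 1.87 to 3.29). So were 8875 of all 9840 nuclear peaks first listed there. Of the 4 members in the second run 3 were lower (0.697, 0.514 to 0.940), as were 6648 of all 8075 nuclear peaks of that run. Over all peaks the 3 runs had ratios of 1.70, 0.712 and 0.934, in order.

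Higher deposited signal was not limited to the windows. The 29 peaks between the 2 windows had a ratio of 1.18 (1.12 to 1.24) and a median log2 ratio of 0.35, and 15 of them held a tRNA gene. The 22 peaks within 1 Mb beyond the distal window had a ratio of 1.11 (1.05 to 1.17), and the 27 within 1 Mb before the proximal window 0.975 (0.933 to 1.02). Their median log2 ratios were 0.33 and 0.16. Chromosome 13 as a whole had a ratio of 0.955 (0.952 to 0.959) and a median of 0.016. At the smaller canonical histone loci of chromosomes 3, 6 and 11, the ratio was 1.18 (1.13 to 1.24). All 11 peaks at these loci were higher as deposited, against 41766 of all 84591 nuclear peaks. The log2 ratio of the summed signal was 0.17 for the 37 histone-gene peaks of the windows and 0.24 at these loci, a difference of -0.076 that a single factor per library leaves nearly unchanged.

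Genes that make, process and use histones were read from 5 lists. Over their 73 genes, all with a peak within 1 kb, the median log2 ratio was -0.12 as deposited and 0.024 after the loess correction, against -0.071 for the deposited values of all 15470 genes. Of the 73, 16 were above 0 and 57 below, 2 were at least 25% higher and 9 at least 20% lower, against 10.7% and 8.81% of all genes. The 73 had a median control signal of 658. The 7618 tested start-site peaks of the upper 3 signal deciles had a median log2 ratio of -0.12. Of these peaks, 170 (2.23%) were at least 25% higher and 805 at least 20% lower. These are values of peaks and not of genes, and the 73 were not matched to them by signal. All directions in this and the next paragraphs are as deposited.

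Among 18 genes of histone transcription and the histone locus body, 0 were at least 25% higher and 1 was at least 20% lower. Over all genes the shares were 10.7% and 8.81%. Npat, the coactivator of the locus body, had 1245 in control and 1066 in ablation, 0.856 (0.795 to 0.922). Casp8ap2, which encodes the locus body protein FLASH, had 748 and 666, 0.890 (0.809 to 0.979). Both intervals lie below 1. Tested peaks over a protein-coding start site in the top signal decile also had a summed ratio below 1, at 0.885. Of these 3852 peaks, 3340 were lower. Ccne1, the cyclin E1 gene, was lowest of the list with 718 and 533 (log2 ratio -0.43), followed by Trim24 (-0.28). Its partner kinase gene Cdk2 was highest with 310 and 357 (0.21), and E2f1 was next at 0.013.

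Among 18 genes of histone mRNA 3′ end processing and decay, 0 were higher and 1 lower at the same sizes, against 10.7% and 8.81% of all genes. Slbp, which encodes the stem-loop binding protein, had 1005 and 834, 0.830 (0.763 to 0.903). Pcf11 (-0.36) and Lsm11 (-0.27), a component of the U7 particle that cleaves histone mRNA, had the lowest log2 ratios. Snrpb (0.18) and Cpsf1 (0.14) had the highest, both with intervals that include no change.

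Of 13 histone chaperone genes, 0 were higher and 4 lower at these sizes, against 10.7% and 8.81% of all genes, which were not matched by signal. The lowest log2 ratios were those of Asf1b (-0.35), an H3-H4 chaperone of dividing cells, and Rbbp7 (-0.34). Supt16 (0.28), a subunit of FACT, and Nap1l1 (0.14) had the highest. Of 14 S phase genes, 1 was higher and 3 lower, against the same shares of all genes. Gins2, of the replicative helicase, had a log2 ratio of -0.39, with 1565 in control and 1192 in ablation. Tyms, thymidylate synthase, was highest at 0.44 with 89.6 and 122, and Rrm2 followed at 0.054.

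Of the 10 replication-independent histone genes, which lie outside the clusters and are expressed through the cell cycle, 1 was at least 25% higher. None (0) was at least 20% lower. Over all genes the shares were 10.7% and 8.81%. The median log2 ratio of the 10 was -0.073. H2az2 (-0.30) and H2az1 (-0.20), which encode H2A.Z, had the lowest, and Macroh2a1 (0.35) and Macroh2a2 (0.32) the highest. The median of the clustered histone-gene peaks was 0.18; the difference between the groups was not tested.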

How the data were processed

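The submitters' processing notes name MACS2 2.1.0.20151222, Bowtie2 2.3.4.2, HTSeq, Trimmomatic and Picard and build mm10, without roles or settings. The authors deposited a normalized signal per peak and library in 1 table of 116411 rows, from which repeats were merged. All signal values (100%) were whole multiples of a step of 0.706 (control) or 0.907 (ablation), within 0.1 of a read, so whole reads were recovered. Neither the choice of the factors nor that of the peaks is stated. Group words alone matched the columns to the samples: the control column bears a 2 where the title has a 1, and the other reads Exp where the title reads Abl. No per-sample column was left unused (0).

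Ratios are log2((ablation + 1)/(control + 1)) per peak. For sums, genes and intervals the ratio is that of the summed signal, with Clopper-Pearson intervals (95%, exact) of those reads; PCR copies are not independent molecules. A count of 0 (3 reads) allows up to 2.12 normalized reads in control and 2.72 in ablation. Gene positions came from the RefSeq table of GRCm38.p6 and start sites and sequences from the RefSeq promoter table; whether peak starts count from 0 or 1 is not stated. The intervals, computed on simulated reads for 84591 peaks, covered the true ratio in 94.5% of 2000 unchanged peaks. The reads were drawn from the counting model that the intervals assume, so coverage near 95% was built in. PCR copies and variation between animals were not part of the simulation.

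Members, gene lists and alternatives were chosen with earlier results of these data known. Text names, per histone class, the gene with the highest control signal and those with the highest and lowest ratio among peaks of at least median signal, the 3 highest and lowest member peaks, germline histone genes, genes without a peak, Npat, Slbp, Casp8ap2 and the 2 highest and lowest genes of each list; all others were chosen after their values were seen, and 1 gene that this rule names is not reported here. Since the design holds 1 library per group, no test was run. Tools were Python 3.11.15, scipy 1.17.1, pandas 2.3.3, numpy 2.4.6, Biopython 1.88, statsmodels 0.14.6 and matplotlib 3.10.9.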

Additional observations from a re-analysis of the deposited data

Results flagged for a closer look

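The mitochondrial peaks, which enter no comparison above, took 31.2% of the reads in peaks in the ablation library and 7.31% in the control library. They are singled out because the signal lies outside the nuclear peaks and above the level of the control. With 1 library per group its relation to the histone-gene values was not tested.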

How the results depend on the processing

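Dividing by whole-table totals reversed the histone-gene median (-0.16), their summed log2 ratio (-0.17), the non-histone median (-0.10) and the class sums (H1 -0.26, H2A -0.15, H2B -0.20, H3 -0.16, H4 -0.032), and gave -0.46 for the pathway genes. Totals over nuclear peaks alone gave 0.27, 0.26, 0.33 and -0.026 for the first 3 and the pathway genes. The loess correction gave 0.29, 0.30 and 0.15, a distance of 0.29 from the median of all peaks, and reversed the pathway median (0.024). That distance was 0.19 to 0.21 under all other settings. Settings that change only the factor of a library leave it nearly unchanged by construction. Without the filter 6 members were at least 2-fold higher and 1 lower, at 1.5-fold 7 were higher and 1 lower, and at 3-fold 2 were higher. Pseudocounts of 0.5 and 5, a 2 kb flank and a 25th percentile filter kept the direction of the histone-gene median and sum; body overlap selected peaks with the same values. The pseudocounts and that filter also left the counts past 2-fold within 1.5 times. No paired analysis was possible because each group holds 1 library. Depth limits weak members: with a median of 183 reads per member in ablation, differences of a few percent lie within counting error, and variation between animals was not measured.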
